A study of Mus musculus with 6 samples.

Results

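The tumour necrosis factor (TNF) receptor and ligand superfamily was described in regulatory T cells (Treg cells) that overexpress miR-27. Members were chosen by gene symbol, with earlier results of these data known. They are symbols that begin with Tnfrsf or Tnfsf and a digit, plus Cd27, Cd40, Cd40lg, Cd70, Fas, Fasl, Lta, Ltb, Ltbr, Tnf, Ngfr, Eda, Edar, Eda2r and Relt. This gave 46 genes, 28 receptors and 18 ligands, of 24453 symbols in the deposited table. Treg cells sorted as CD4+Foxp3+ came from healthy female C57BL/6 mice in 2 groups of 3 libraries. The control group is titled WT, its genotype label reads WT Tg, and the wording Tg is not explained in the sources used here. The other group carries the genotype label miR-27 Tg, and the series text places the overexpression of miR-27a in Treg cells of Foxp3cre het mice. Foxp3 lies on the X chromosome, so each cell of a heterozygous female uses the Cre-bearing or the other allele. Whether the control mice carry the Foxp3cre allele, whether the sort kept only cells with the Cre-bearing allele active, and the age of the mice, are not given in the sources used here.

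TNF superfamily ligands are mostly trimers on the cell surface that cluster their receptors on a neighbouring cell. Receptors without a death domain bind TRAF adaptors and turn on NF-kB and survival signals, while death domain receptors can recruit FADD and caspase-8. Treg cells are known for high surface levels of the co-stimulatory receptors GITR, OX40, 4-1BB and TNFR2, which support their expansion and maintenance.

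Read counts summed over all listed transcripts were 37700000 to 42100000 per WT library and 34400000 to 38100000 per miR-27 Tg library. A read in exons shared by transcripts counts for each of them, so these sums are not the sequencing depth. The labelled overexpression was present in each miR-27 Tg library. Mir27a, the hairpin gene of miR-27a, had 24.9, 38.4 and 24.7 RPKM in WT libraries against 8919, 7448 and 7898 in miR-27 Tg. These are reads over the hairpin gene, and mature miR-27 was not measured here. RPKM here means reads per kilobase of exon and per 10000000 counted reads. All 7 Treg and T cell markers of a fixed list were present in every library, with Foxp3 at 662 to 830.3 RPKM in WT libraries against 774 to 955 in miR-27 Tg. Of these 7, 0 passed and 2 had an unadjusted p under 0.05: Ctla4, at 3125 to 3771 RPKM in WT libraries against 2107 to 2575 in miR-27 Tg (log2 fold change -0.56, adjusted p = 0.0868), and Ikzf2 (-0.51, adjusted p = 0.290). The 7 went both ways, with 3 above 0 (Foxp3, Il2ra and Cd4) and 4 below. Cd4 was higher in every miR-27 Tg library than in any WT library (0.18, adjusted p = 0.46). The summed level of the 7 was 12210 to 13000 RPKM in WT libraries against 10720 to 11640 in miR-27 Tg, without overlap. Ctla4, with group means of 3436 and 2335 RPKM, is part of this sum. The part of these markers' changes in the members' values was not tested. Markers of other cell types were present too. Summed over the 16 myeloid markers found in the table, the level was 436 to 833 RPKM in WT libraries against 580.5 to 2053 in miR-27 Tg, and 14 of 15 tested were above 0 (median log2 fold change 1.16). Of these 10 had an unadjusted p under 0.05, and 1 (Itgam) passed at adjusted p = 0.0118. Summed over 12 B cell markers it was 622 to 1207 RPKM in WT libraries against 783 to 2447 in miR-27 Tg, and 0 of 11 tested passed at the adjusted threshold (1 had an unadjusted p under 0.05), with 7 above 0 and 4 below. Most of that sum was Cd74, a gene of all antigen-presenting cells, and without it the other 11 summed to 149.6 to 179 RPKM in WT libraries against 116 to 209.5 in miR-27 Tg. Both full sums were highest in miR-27 Tg replicate 2, and 0 markers of either list were at 0 in all libraries. Of 7 erythroid and 4 epithelial or stromal markers tested, 0 and 1 (Epcam, lower) passed.

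The design allows one comparison, of family members in miR-27 Tg Treg cells with those in WT. The receptor Tnfrsf8 (CD30) fell to 0.444 of its WT mean, and no other member passed the test. The receptors Tnfrsf1b (TNFR2) and Tnfrsf9 (4-1BB) and the ligands Fasl, Tnfsf14 (LIGHT) and Tnfsf13b (BAFF) had miR-27 Tg means of 0.531 to 0.666 of the WT mean without passing. The most abundant members, Ltb, Cd27 and Tnfrsf18 (GITR), had means of 0.878 to 0.991 of WT. No member passed as higher.

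Of the 46 members 36 had a mean of at least 1 RPKM and were tested, 21 receptors and 15 ligands. Every fold change is a difference of mean log2(RPKM + 1), miR-27 Tg minus WT, which understates changes of low genes. By limma with Benjamini-Hochberg adjustment over 13621 genes, 1 member was lower and 0 were higher, against 0.653% and 0.374% of all genes tested. At an unadjusted p under 0.05, 9 members were lower and 0 higher, against 8.43% and 4.59% of all genes. In 10 of the 36 tested members every miR-27 Tg library lay below every WT library and in 0 every one lay above, against 11.6% and 6.84% of all genes. These counts leave out the members under the filter. Of those, Tnfrsf11a and Tnfrsf19, both with few reads, had every miR-27 Tg library above every WT library. The median log2 fold change was -0.024 over the 36 members and -0.013 over all genes tested, and 21 members were below 0 and 15 above. The members' median moved with the setting, in both directions, and so did the median of all genes. The members' median was the lower of these in every setting, and a test of that difference was not made. It was -0.11 against -0.01 for all genes at a mean of at least 5 RPKM, and -0.11 against -0.02 without miR-27 Tg replicate 2. It was -0.07 against -0.03 without miR-27 Tg replicate 3 and -0.07 against -0.02 without WT replicate 3. Median-ratio rescaling gave 0.002 against 0.012 for all genes. Leaving out miR-27 Tg replicate 1 gave -0.008 against 0.005, and leaving out WT replicate 2 gave -0.017 against 0.005.

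**Figure D1:**
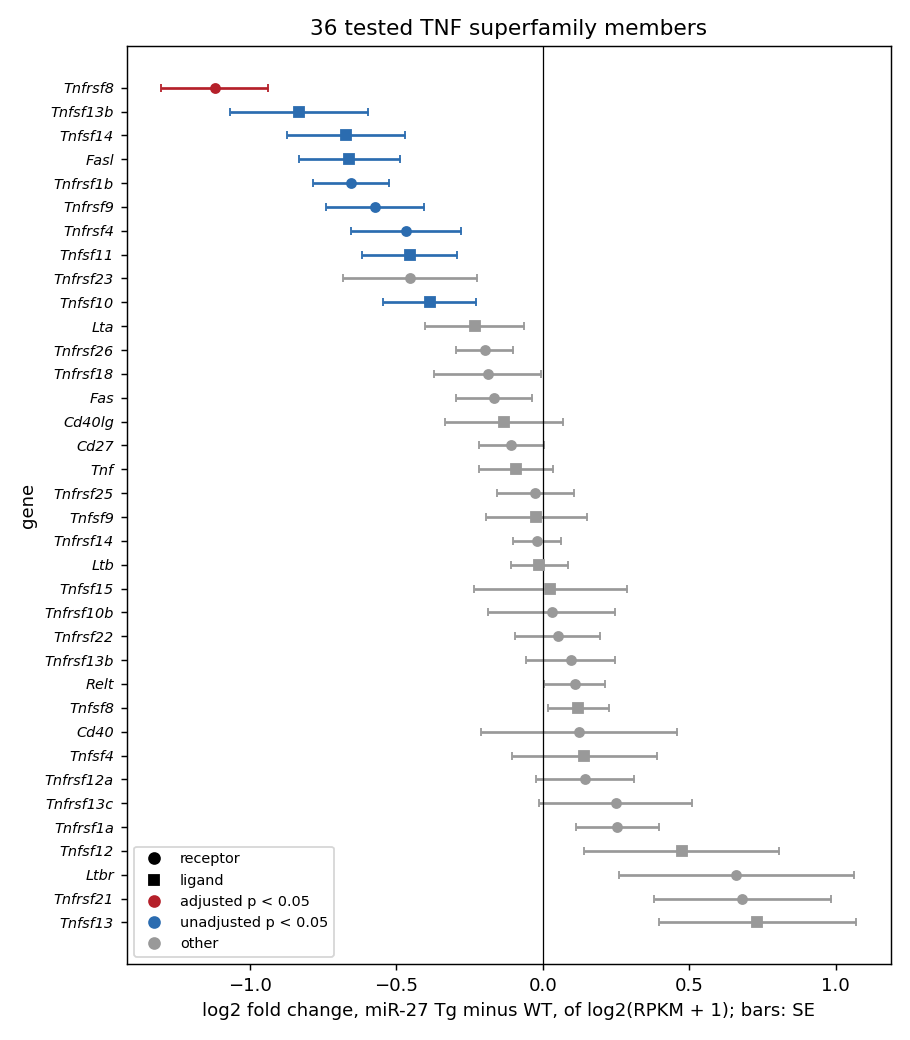
Log2 fold change (miR-27 Tg minus WT, of log2(RPKM + 1)) with its standard error for the 36 tested members, circles for receptors and squares for ligands, coloured by adjusted and unadjusted p. Tnfrsf8 is farthest to the left at -1.12, and 9 members, all below 0, have an unadjusted p under 0.05.

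Tnfrsf8 (NM_009401) encodes CD30, a receptor of activated T cells, and lies on the minus strand at chr4:145268976-145315147 (mm10). In order of replicate number, as for every gene here, it had 24.8, 30.6 and 25.01 RPKM in WT libraries against 9.26, 12.8 and 13.6 in miR-27 Tg. The lowest WT library was well above the highest miR-27 Tg library. These values correspond to 163, 188 and 147 reads in WT libraries against 55, 69 and 73 in miR-27 Tg. The log2 fold change of Tnfrsf8 was -1.12 with an SE of 0.18 and an adjusted p of 0.0394. The group means were 26.8 ± 3.30 and 11.9 ± 2.32 RPKM (SD, n = 3). With any 1 of the 6 libraries left out the log2 fold change was -1.22 to -0.96 and the adjusted p 0.0745 to 0.122. The call was thus lost each time. Calls over all genes fell too, from 51 higher and 89 lower to 3 to 21 higher and 2 to 46 lower. In a bulk sample fewer cells that express a gene and less RNA per cell cannot be told apart, here and for every gene that follows. Its ligand Tnfsf8 (CD30L) was far more abundant and had 373, 382 and 324 RPKM in WT libraries against 358, 386 and 429 in miR-27 Tg (log2 fold change 0.12, SE 0.10, adjusted p = 0.710). The WT and miR-27 Tg libraries of the ligand overlapped.

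Tnfrsf1b (NM_011610) encodes TNFR2, the TNF receptor without a death domain, and is the neighbour of Tnfrsf8, at chr4:145212368-145246870 on the same strand with a gap of 22.1 kb. It had 393, 481 and 417 RPKM in WT libraries against 238, 319 and 265 in miR-27 Tg. The groups did not overlap, and the means were 430.3 ± 45.5 and 274 ± 41.5 RPKM (SD, n = 3). The log2 fold change was -0.65 (SE 0.13), with an adjusted p of 0.0683 that misses the threshold. Over the alternatives without a replicate block its adjusted p ranged from 0.0462 to 0.298, and it passed with median-ratio (0.0497) and upper-quartile rescaling (0.0462).

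Tnfrsf1a, the TNF receptor with a death domain, had 107, 99.0 and 110.1 RPKM in WT libraries against 145, 136 and 101 in miR-27 Tg (log2 fold change 0.26, adjusted p = 0.529). The groups overlapped through miR-27 Tg replicate 3. The shared ligand Tnf had 152, 198 and 158 RPKM in WT libraries against 141, 165 and 168 in miR-27 Tg (-0.09, SE 0.13, adjusted p = 0.840). Lta, lymphotoxin alpha, which binds both TNF receptors as a homotrimer, had 366, 524 and 343 RPKM in WT libraries against 299, 375 and 361 in miR-27 Tg (-0.23, adjusted p = 0.640). The groups overlapped for both ligands.

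Tnfrsf9 (NM_001077509, chr4:150927999-150946102, plus strand) encodes 4-1BB, which is induced by T cell receptor signals. It had 265, 384 and 274 RPKM in WT libraries against 171, 227 and 217 in miR-27 Tg (log2 fold change -0.57, SE 0.17, adjusted p = 0.184). The groups did not overlap, and WT replicate 2 stood above the other WT libraries. Its ligand Tnfsf9 (4-1BBL) was low, with 26.8, 18.3 and 21.02 RPKM in WT libraries against 20.6, 19.9 and 23.9 in miR-27 Tg (-0.02, SE 0.17, adjusted p = 0.979). It shares 14.9% of its exonic bases with Gm11110, and counting on both strands does not tell them apart.

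Tnfrsf4 (NM_011659, chr4:156013695-156016589, plus strand) encodes OX40. It had 792, 1289 and 937 RPKM in WT libraries against 596, 781 and 777 in miR-27 Tg (log2 fold change -0.47, SE 0.19, adjusted p = 0.337). The groups did not overlap, but the lowest WT and highest miR-27 Tg libraries lay close together. Its ligand Tnfsf4 (OX40L), typical of antigen-presenting cells, had 3.81 to 7.12 RPKM in WT libraries against 4.75 to 6.34 in miR-27 Tg (0.14, adjusted p = 0.880).

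**Figure D2:**
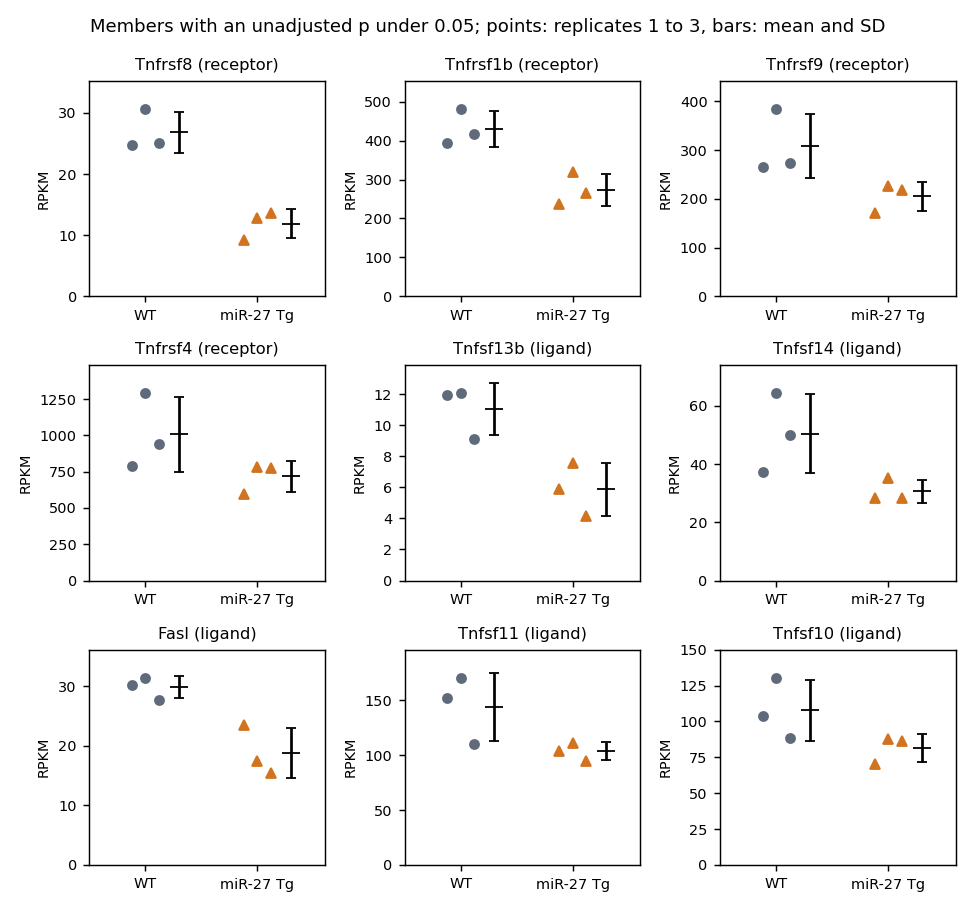
RPKM of the 9 members with an unadjusted p under 0.05 in each library, with the mean and SD of each group beside the points and axes that start at 0. The groups do not overlap for 8 of them, and for Tnfsf11 miR-27 Tg replicate 2 (111 RPKM) lies above WT replicate 3 (110.2).

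MicroRNAs repress messenger RNAs mainly through matches of their seed, bases 2 to 8, in the 3′ UTR. The sequences below show the seed of miR-27 and the matching letters in the 3′ UTRs of Tnfrsf8, Tnfrsf1b, Tnfrsf9 and Tnfrsf26. These are the 4 of 8 tested members with a match in which every miR-27 Tg library lay below every WT library. The set shown thus holds only members with such a fall, which 6 of 28 tested members without a match also had. Other tested members also hold matches and are named after the sequences. Both mature forms, from RefSeq (GRCm38.p6), share the seed, which is in capitals:

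mmu-miR-27a-3p: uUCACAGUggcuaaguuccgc

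mmu-miR-27b-3p: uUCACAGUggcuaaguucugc

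The complement of the seed, ACTGTGA, was searched on the sense strand in the 3′ UTR of the matching GENCODE M21 transcript (GRCm38). It was found in 8 of the 36 tested members (22.2%), against 16.7% of 11817 tested genes with an annotated 3′ UTR. These genes were searched in their longest annotated 3′ UTR, so the UTRs were not chosen alike. The longest 3′ UTR of each tested member held as many matches as the one searched. Median lengths were 974 bases for the searched 3′ UTRs of the members and 1107 for the longest 3′ UTRs of these genes. Among the 4 receptors with an unadjusted p under 0.05, Tnfrsf8, Tnfrsf1b and Tnfrsf9 held 1 match each and Tnfrsf4, with a 3′ UTR of 180 bases, held 0. None of the 5 ligands with an unadjusted p under 0.05 (Tnfsf13b, Tnfsf14, Fasl, Tnfsf11 and Tnfsf10) held one. Capitals mark the match, and each line gives 30 bases of the transcript strand:

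Tnfrsf8 (chr4:145268230-145268259, minus): tagcccacgcccACTGTGAggaggccgttc

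Tnfrsf1b (chr4:145214914-145214943, minus): tccgggttaggcACTGTGAgttggaacagc

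Tnfrsf9 (chr4:150945769-150945798, plus): aagggacaaagcACTGTGAggtggggaaca

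Tnfrsf26 (chr7:143608075-143608104, minus): accagtccaagtACTGTGAatgctgtcata

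The Tnfrsf8 match lies past the end of the RefSeq model in the deposited table (1560 bases of exon), so no read over it was counted for that gene. The other tested members with a match were Tnfrsf10b, with 2 matches, and Tnfrsf13c, Cd40lg and Tnfsf12 with 1 each. Their sequences are not shown, and their log2 fold changes were 0.03, 0.25, -0.13 and 0.47 in that order. Of the tested members, Tnfrsf26 alone had a match followed by an A, the longer form of the canonical site. The 8 members with a match had a median log2 fold change of -0.17, with 5 below 0, and the 28 without had -0.02, with 16 below 0. Over the tested genes with an annotated 3′ UTR the medians were -0.06 with a match and 0.00 without. A match is a description of the letters, and binding of miR-27 there was not tested.

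The other co-stimulatory receptors were abundant and did not pass. Cd27, a receptor of naive and memory T cells, was the most abundant receptor, above 98.7% of tested genes. It had 1228, 1584 and 1429 RPKM in WT libraries against 1251, 1310.0 and 1357 in miR-27 Tg (log2 fold change -0.11, SE 0.11, adjusted p = 0.765). Its ligand Cd70 was almost unread, with 2, 1 and 0 reads in WT libraries against 0, 0 and 4 in miR-27 Tg. Tnfrsf18 (GITR) had 833, 1232 and 1069 RPKM in WT libraries against 761, 866 and 1126 in miR-27 Tg (-0.19, SE 0.18, adjusted p = 0.747), and 25.3% of its exonic bases are shared with Gm16008. The groups overlapped for Cd27 and for Tnfrsf18. The GITR ligand Tnfsf18 was listed at 0 in all 3 WT libraries and had 1, 1 and 0 reads in miR-27 Tg.

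Tnfrsf18 and Tnfrsf4 lie 9.8 kb apart on chromosome 4, in the same orientation. Their WT means were alike, 1045 ± 200.5 and 1006 ± 256 RPKM, and their miR-27 Tg means were 918 ± 188 and 718 ± 106 (SD, n = 3). A test of the difference between their changes was not made. In both genes WT replicate 2 was the highest WT library and miR-27 Tg replicate 1 the lowest of its group. That order was near its share over all genes: WT replicate 2 was highest in WT for 18 of 36 tested members and 47.4% of all genes, and miR-27 Tg replicate 1 lowest in its group for 20 of 36 and 50.3%.

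Tnfrsf25 (DR3), a death domain receptor that also co-stimulates T cells, had 345, 432 and 459 RPKM in WT libraries against 358, 413 and 438 in miR-27 Tg (log2 fold change -0.03, SE 0.13, adjusted p = 0.967). Its ligand Tnfsf15 (TL1A) had 0.866 to 1.51 RPKM in WT libraries against 1.13 to 1.55 in miR-27 Tg. Tnfrsf14 (HVEM), which binds LIGHT and the inhibitory receptor BTLA, had 310.2, 320.4 and 321 RPKM in WT libraries against 299, 334 and 307 in miR-27 Tg (-0.02, SE 0.08, adjusted p = 0.957). Their log2 fold changes were the closest to 0 among the 11 receptors with a mean of at least 100 RPKM.

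**Figure D3:**
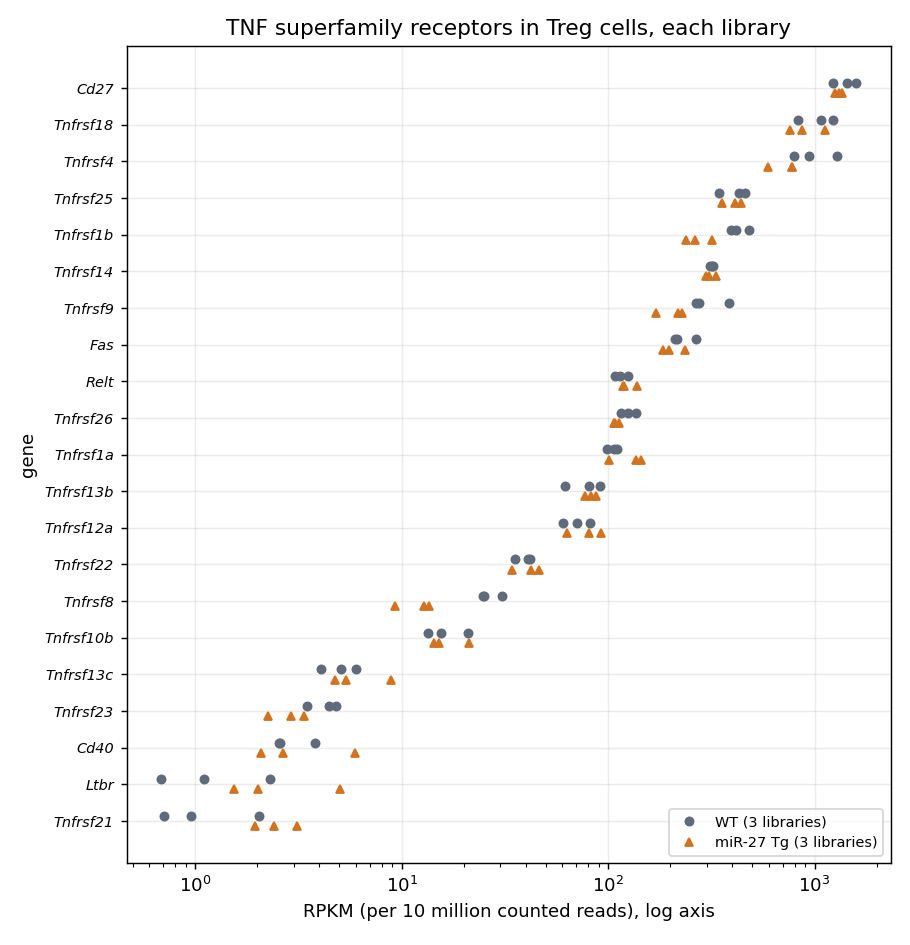
RPKM of the 21 tested receptors in each library on a log axis, circles for WT and triangles for miR-27 Tg, ordered by mean level. Levels run from Cd27, at 1228 RPKM or more, down to Tnfrsf21, at 3.13 or less, and the triangles of Tnfrsf8 (9.26 to 13.6) lie apart from its circles (24.8 to 30.6).

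The death receptors Fas and Tnfrsf10b did not pass either. Fas, which triggers apoptosis of activated lymphocytes, had 216, 267 and 211 RPKM in WT libraries against 184, 197 and 236 in miR-27 Tg (log2 fold change -0.17, SE 0.13, adjusted p = 0.671). Tnfrsf10b, the TRAIL receptor of the mouse, had 20.9, 13.4 and 15.5 RPKM in WT libraries against 21.2, 15.2 and 14.4 in miR-27 Tg (0.03, SE 0.22, adjusted p = 0.978). The groups overlapped for both.

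Tnfrsf26, Tnfrsf22 and Tnfrsf23 form a cluster on chromosome 7 with gaps of 7.0 and 16.1 kb, and Tnfrsf22 and Tnfrsf23 are decoy receptors of TRAIL. Tnfrsf26 had 115, 137 and 125 RPKM in WT libraries against 107, 108 and 112 in miR-27 Tg (log2 fold change -0.20, SE 0.10, adjusted p = 0.444). Tnfrsf23 had 49, 59 and 61 reads in WT libraries against 37, 26 and 39 in miR-27 Tg (-0.45, SE 0.23, adjusted p = 0.464). The groups did not overlap for these 2 genes, while Tnfrsf22, which lies between them, overlapped at 35.4, 41.7 and 40.7 RPKM in WT libraries against 42.6, 34.1 and 46.2 in miR-27 Tg (0.05, adjusted p = 0.934).

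Relt, a receptor of lymphoid tissue, had 108, 114 and 125 RPKM in WT libraries against 119, 118 and 138 in miR-27 Tg (log2 fold change 0.11, SE 0.10, adjusted p = 0.745). Tnfrsf12a (Fn14), the TWEAK receptor, had 60.4 to 82.0 RPKM in WT libraries against 63.5 to 92.4 in miR-27 Tg (0.14, adjusted p = 0.800). Tnfrsf13b (TACI), best known on B cells, had 61.6, 80.9 and 91.6 RPKM in WT libraries against 77.2, 82.2 and 87.7 in miR-27 Tg (0.09, SE 0.15, adjusted p = 0.866). TACI was thus far above the other receptors of BAFF: Tnfrsf13c (BAFF-R) had 4.05 to 6.00 RPKM in WT libraries against 4.74 to 8.86 in miR-27 Tg, and Tnfrsf17 (BCMA) had at most 3 reads in any library.

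Among low receptors, several were highest in miR-27 Tg replicate 2, the library with the highest myeloid and B cell marker sums. Others were not: Tnfrsf23 was lowest in that library, and Tnfrsf10b was highest in miR-27 Tg replicate 1. Within the miR-27 Tg group, replicate 2 was highest for 14 of 36 tested members and 35.2% of all genes. Ltbr, the lymphotoxin beta receptor of stromal and myeloid cells, had 6, 9 and 18 reads in WT libraries against 16, 36 and 11 in miR-27 Tg (log2 fold change 0.66, SE 0.40, adjusted p = 0.578). Tnfrsf21 (DR6) had 31, 10 and 13 reads in WT libraries against 27, 39 and 30 in miR-27 Tg (0.68, SE 0.30, adjusted p = 0.396). Cd40, the receptor of antigen-presenting cells, had 18, 25 and 16 reads in WT libraries against 17, 34 and 12 in miR-27 Tg (0.12, SE 0.34, adjusted p = 0.933). Tnfrsf13c had 48, 38 and 29 reads in WT libraries against 39, 58 and 31 in miR-27 Tg (0.25, adjusted p = 0.767). The groups overlapped for Ltbr, Tnfrsf21, Cd40 and Tnfrsf13c, and the part of other cell types in these values was not tested.

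The 7 receptors under the filter had at most 15 reads in any library. Tnfrsf11a (RANK) had 9, 8 and 10 reads in WT libraries against 12, 15 and 11 in miR-27 Tg. Tnfrsf19 (TROY), a receptor of epithelia and neural tissue, had 0, 2 and 1 reads in WT libraries against 9, 7 and 8 in miR-27 Tg. In a limma fit with no filter, Tnfrsf19 had a log2 fold change of 0.55 (SE 0.05, unadjusted p = 0.000189, adjusted p = 0.081). Tnfrsf11a had 0.23 there (SE 0.07, unadjusted p = 0.023, adjusted p = 0.439). Neither gene passed, and the groups did not overlap for either. Ngfr, Tnfrsf11b, Edar and Eda2r had 0 to 4 reads per library.

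Among ligands Ltb, lymphotoxin beta, was the most abundant member of the family, above 99.5% of tested genes. It had 2405, 2563 and 2747 RPKM in WT libraries against 2515, 2465 and 2666 in miR-27 Tg (log2 fold change -0.01, SE 0.10, adjusted p = 0.981). Ltb, Tnf and Lta lie next to each other on chromosome 17, with gaps of 3.1 and 1.2 kb, and none of the 3 passed. Cd40lg, the CD40 ligand of helper T cells, had 230.5, 179 and 169.5 RPKM in WT libraries against 209, 199.7 and 127 in miR-27 Tg (-0.13, SE 0.20, adjusted p = 0.860). For each of the 5 most abundant ligands (Ltb, Lta, Tnfsf8, Cd40lg and Tnf) the groups overlapped.

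Of the ligands, 5 had an unadjusted p under 0.05 without passing. Fasl, the Fas ligand, had 30.3, 31.5 and 27.8 RPKM in WT libraries against 23.4, 17.4 and 15.4 in miR-27 Tg (log2 fold change -0.66, SE 0.17, adjusted p = 0.144). Every miR-27 Tg library was below every WT library. Fasl is typical of cytotoxic cells, and of 9 tested CD8 T and NK cell markers 1 passed, Nkg7, at 103, 114 and 90.4 RPKM in WT libraries against 48.2, 59.0 and 51.8 in miR-27 Tg (-0.93, adjusted p = 0.0257). The list went both ways, with 5 above 0 and 4 below: Ccl5 (-0.82, adjusted p = 0.0726) and Klrb1c (-1.05, adjusted p = 0.140) had lower values in every miR-27 Tg library, and Cd8b1 (0.72, adjusted p = 0.258) had higher ones. The summed level of that list was 293 to 352 RPKM in WT libraries against 230.0 to 350.3 in miR-27 Tg, and its part in the Fasl values was not tested. Tnfsf10 (TRAIL), which triggers death through Tnfrsf10b, had 104, 131 and 88.6 RPKM in WT libraries against 70.3, 88.0 and 86.5 in miR-27 Tg (-0.39, SE 0.16, adjusted p = 0.353). Here WT replicate 3 and miR-27 Tg replicate 2 almost touched.

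Tnfsf11 (RANKL), the ligand of RANK in bone and lymphoid tissue, had 152, 171 and 110.2 RPKM in WT libraries against 104, 111 and 94.9 in miR-27 Tg (log2 fold change -0.46, SE 0.16, adjusted p = 0.276). The groups overlapped through WT replicate 3. Tnfsf14 (LIGHT), the ligand of HVEM and of the lymphotoxin beta receptor, had 37.1, 64.3 and 50.01 RPKM in WT libraries against 28.3, 35.2 and 28.5 in miR-27 Tg (-0.67, SE 0.20, adjusted p = 0.203). The groups did not overlap, although WT replicate 1 lay close to miR-27 Tg replicate 2. Its neighbours on chromosome 17, Cd70 at a gap of 39.7 kb and then Tnfsf9, are described above.

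Tnfsf13b (BAFF), a B cell survival factor, had 11.97, 12.04 and 9.11 RPKM in WT libraries against 5.91, 7.57 and 4.13 in miR-27 Tg, from 85, 80 and 58 and from 38, 44 and 24 reads. The log2 fold change was -0.83 (SE 0.24, adjusted p = 0.172), and the groups did not overlap. BAFF is also a product of myeloid cells, whose marker sum was higher in miR-27 Tg replicates 2 and 3 than in any WT library, and its part here was not tested. Tnfsf13 (APRIL), its relative, had 3, 4 and 7 reads in WT libraries against 7, 18 and 9 in miR-27 Tg (0.73, SE 0.34, adjusted p = 0.416). Tnfsf12 (TWEAK) had 5, 2 and 11 reads in WT libraries against 12, 8 and 8 in miR-27 Tg (0.47, adjusted p = 0.628). Tnfsf13 has 69.9% and Tnfsf12 has 50.7% of its exonic bases in common with other genes such as Tnfsfm13, so reads of these neighbours were not told apart. Eda had 0 to 6 reads per library.

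**Figure D4:**
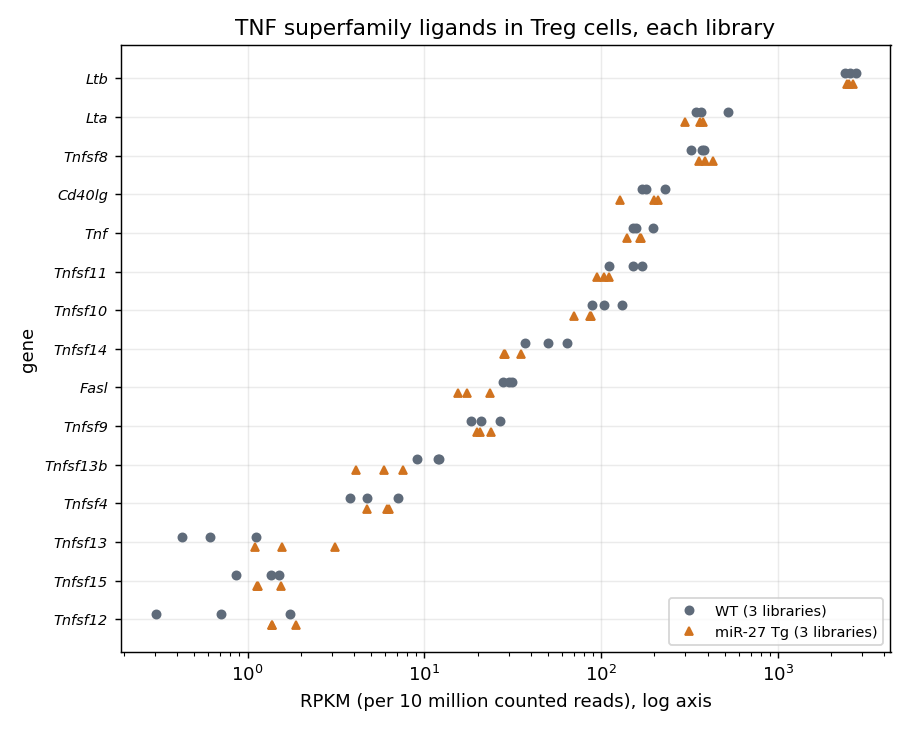
RPKM of the 15 tested ligands in each library on a log axis, circles for WT and triangles for miR-27 Tg, ordered by mean level. Ltb, at 2405 RPKM or more, stands above the rest, and Fasl, Tnfsf14, Tnfsf13b and, by a narrow margin, Tnfsf10 have every triangle to the left of every circle.

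Set against each other on the per-length RPKM scale, levels of receptor and ligand were unequal in several pairs. GITR, OX40, CD27 and DR3 had mean levels of 981, 862, 1360.0 and 407.5 RPKM over the 6 libraries, while their ligands Tnfsf18, Tnfsf4, Cd70 and Tnfsf15 had 0.0448, 5.49, 0.377 and 1.26. The reverse held for CD30, with 19.4 RPKM against 375.5 for Tnfsf8, for CD40, with 3.27 against 186 for Cd40lg, and for the lymphotoxin beta receptor, with 2.11 against 2560.0 for Ltb. RANK, at 0.583 against 124 for Tnfsf11, was of the same kind. TNFR2 and Tnf, and Fas and Fasl, were both present, at 352 and 164 and at 218.5 and 24.3 RPKM.

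In the 15 members with more than 1 transcript, these share exons and hence reads. The 3 of Tnfrsf9 had log2 fold changes of -0.57 each, and the 2 of Fasl had -0.66 and -0.67. Fas transcripts of 1475 and 550 bases had -0.17 and -0.25, and the 5 of Cd40 ranged from 0.02 to 0.18.

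The genes through which these receptors signal were read from a list of 38 adaptors, kinases, ubiquitin enzymes, NF-kB subunits and sheddases, all of them tested. By limma 0 rose and 0 fell at the adjusted threshold, and at an unadjusted p under 0.05, 1 was higher and 1 lower. The median log2 fold change was -0.02, with 14 above 0 and 24 below, and all lay between -0.28 and 0.21. Ripk1, the kinase that joins TNFR1 to NF-kB or to cell death, had 134, 132 and 138 RPKM in WT libraries against 157, 147 and 163 in miR-27 Tg (0.21, SE 0.09, adjusted p = 0.353). Tab3, a partner of the kinase TAK1, had 49.6, 50.9 and 48.2 RPKM in WT libraries against 40.0, 42.3 and 39.7 in miR-27 Tg (-0.28, SE 0.10, adjusted p = 0.297). The groups did not overlap for either gene.

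Traf1, an adaptor of TNFR2 and 4-1BB, had 699, 621 and 671 RPKM in WT libraries against 598, 613 and 621 in miR-27 Tg (log2 fold change -0.12, SE 0.08, adjusted p = 0.628). Tnfaip3 (A20), a feedback inhibitor induced by NF-kB, had 3729, 2291 and 3478 RPKM in WT libraries against 2971, 2311 and 2880 in miR-27 Tg (-0.20, SE 0.20, adjusted p = 0.757). Nfkbia, the inhibitor IkB alpha, had 2463, 2080 and 2500 RPKM in WT libraries against 2596, 2347 and 3091 in miR-27 Tg (0.19, SE 0.13, adjusted p = 0.635). Rnf31 (HOIP), which builds linear ubiquitin chains, had 228, 199.5 and 233 RPKM in WT libraries against 264, 255 and 227 in miR-27 Tg (0.17, adjusted p = 0.556). The groups overlapped for these 4 genes, for Traf1 by a small margin. Cflar (FLIP), the inhibitor of caspase-8, had 258, 233 and 227 RPKM in WT libraries against 228, 206 and 206 in miR-27 Tg (-0.17, adjusted p = 0.529). Tank, a TRAF-binding regulator, had 538, 620.3 and 480.3 RPKM in WT libraries against 419, 461 and 544 in miR-27 Tg (-0.20, adjusted p = 0.604). The groups overlapped for both. Traf1 and Tnfaip3 were chosen after their values were seen.

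**Figure D5:**
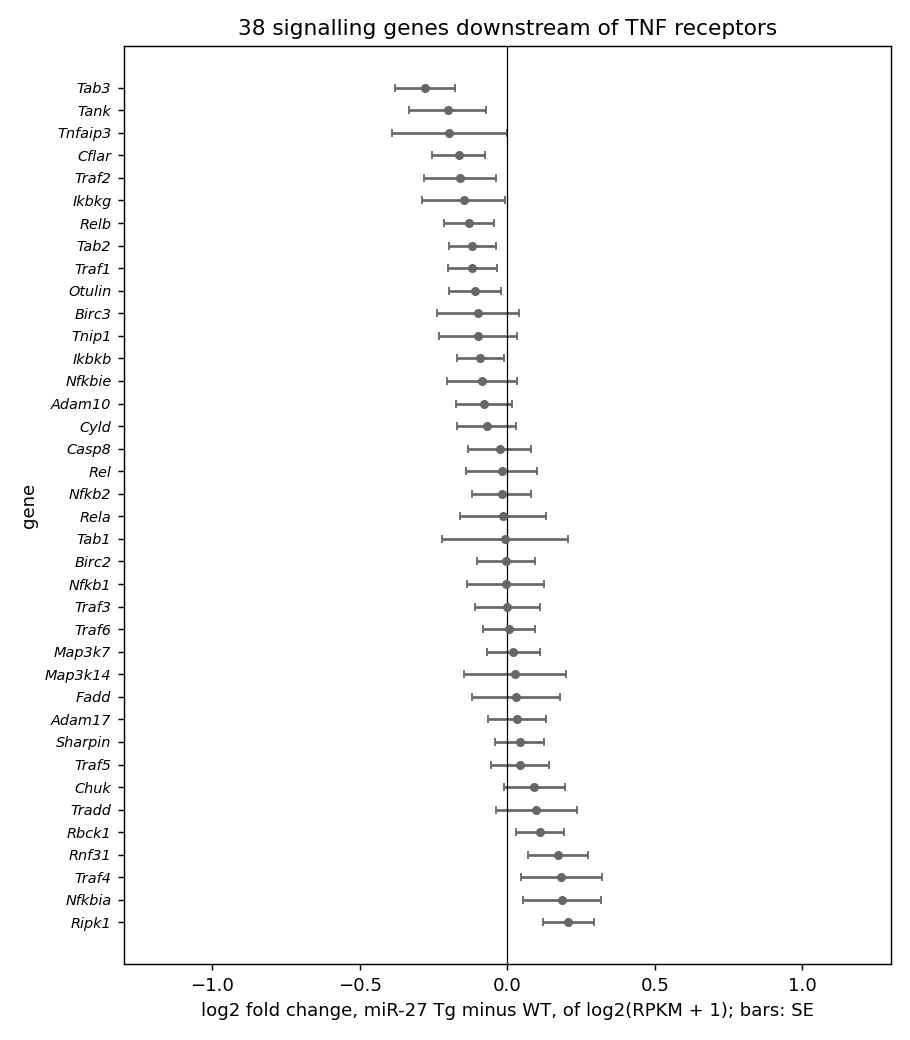
Log2 fold change (miR-27 Tg minus WT, of log2(RPKM + 1)) with its standard error for the 38 signalling genes. All points lie between -0.28 (Tab3) and 0.21 (Ripk1), and none passed the adjusted threshold.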

How the data were processed

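RNA of 6 libraries was measured by sequencing. The authors deposited 1 table of RPKM values, made with HOMER from reads counted in exons of mm10 RefSeq transcripts on both strands and scaled to 10000000 reads, per the file headers. Per the submitters' processing notes, the tools were STAR 2.2.0c and HOMER and the builds mm10 and GRCm38. The treatment of multi-mapping reads was not stated.

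From the deposited RPKM values, 1 transcript per symbol was kept, that with the highest mean. Genes with a mean of at least 1 RPKM were tested two-sided on the log2(RPKM + 1) scale with the trended empirical Bayes fit of limma 3.58.1 (R 4.3.3). The p-values were adjusted by Benjamini-Hochberg across these genes, with a threshold of 0.05. The script was tested on simulated data. Read numbers are RPKM times length over the value of 1 read. In each library 100% of low values were whole multiples of it within 0.1 of a read. No count model was used. The labels do not state that each library is a different mouse. The p-values therefore cover only the spread between libraries, possibly technical. Equal numbers were not taken as pairs (see the closing section). Shared exonic bases and 3′ UTRs came from GENCODE M21, 44 of 46 UTRs by RefSeq identifier and the others as the longest of the gene. Promoters were not used here.

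Members, gene lists and the naming rule were chosen with earlier results of these data known. Values are given for members past the threshold, those with an unadjusted p under 0.05, the 12 receptors and 6 ligands with the highest mean, and their partners, and for up to 3 signalling genes per direction with the smallest p. Alternatives were other pseudocounts (0.1 and 5), filters, scalings, transcripts, weights, a replicate block, no trend and each library left out.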

Additional observations from a re-analysis of the deposited data

How the results depend on the processing

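Of 36 tested members, Tnfrsf8 was the only one past the threshold, and its log2 fold change stayed between -1.22 and -0.92 over 16 alternatives. It passed in 9 of them and missed with no filter (adjusted p = 0.2, with more genes tested) and with each library left out (0.0745 to 0.122). The count of lower members was 0 with no filter, 2 with median-ratio rescaling, 2 with upper-quartile rescaling and 2 with the replicate block (Tnfrsf8 and Tnfrsf1b in each), and 0 to 0 with a library left out. The count of higher members was 0 in every alternative, as were both counts of signalling genes. Over all genes, 51 were higher and 89 lower. With no filter 22 and 15 were, with array weights 81 and 144, with the replicate block 91 and 185, and with a library left out 3 to 21 and 2 to 46. The lowest counts, 3 and 2, came without WT replicate 3 and also without miR-27 Tg replicate 3. Leaving out WT replicate 1 gave 5 and 6, WT replicate 2 gave 19 and 46, miR-27 Tg replicate 1 gave 21 and 34, and miR-27 Tg replicate 2 gave 12 and 44.

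The replicate block gave Tnfrsf1b an adjusted p of 0.0203 and Tnfrsf9 one of 0.0514. Correlations of the deviations of equal-numbered libraries were 0.368, 0.097 and 0.037. The value for replicate 1 was the highest of all pairs, and replicate 1 had -0.222 to -0.143 with unequal numbers. Replicates 2 and 3 did not match by number in this way, so the numbers were not taken as paired. WT replicate 2 correlated better with miR-27 Tg replicate 3 (0.154) than with its own number, and WT replicate 3 better with miR-27 Tg replicate 2 (0.119).

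Members near 0, none of them past the threshold in any alternative, changed sign. With median-ratio rescaling Tnfrsf25, Tnfrsf14, Ltb and Tnfsf9 had 0.001, 0.006, 0.014 and 0.002. With array weights Tnfrsf14, Tnfrsf12a, Tnfrsf22 and Tnfrsf10b had 0.008, -0.031, -0.033 and -0.028. With a library left out Tnfrsf25 ranged from -0.148 to 0.059, Tnfrsf14 from -0.067 to 0.012, Tnfrsf13b from -0.064 to 0.218, Tnfrsf22 from -0.039 to 0.174, Tnfrsf10b from -0.134 to 0.2, Cd40 from -0.223 to 0.359, Ltb from -0.059 to 0.037, Cd40lg from -0.262 to 0.093, Tnf from -0.164 to 0.025, Tnfsf9 from -0.142 to 0.122, Tnfsf4 from -0.027 to 0.351 and Tnfsf15 from -0.102 to 0.112. The median of all genes moved to 0.012 at most by rescaling. The cause of these differences was not tested. Members under 10 RPKM rest on few reads, which limits the precision of their values.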
